A study of Mus musculus with 15 samples.

Results

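The 10 genes described here encode the NF-kappaB subunits Rela, Nfkb1, Rel, Nfkb2 and Relb, the inhibitors Nfkbia, Nfkbib and Nfkbie, and the IkappaB kinase genes Ikbkb and Ikbkg. They were taken by gene name from a deposited table of 14766 genes, and all 10 were found there. Expression was measured by RNA sequencing of whole lung from wild-type mice, in 3 groups of 5 libraries, which the labels call biological replicates. OVA_Rg3 mice underwent ovalbumin induction, given as intraperitoneal injections and then as an aerosol, and were dosed by gavage with ginsenoside Rg3 at 20 mg/kg while the induction was under way. OVA mice underwent the same induction without Rg3, and control mice received normal saline and neither agent. Ovalbumin is an egg protein used to produce allergic airway inflammation, and ginsenoside Rg3 is a saponin of ginseng. All mice were wild type, and no strain, sex or age is given in the sources used here.

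NF-kappaB is a family of dimeric transcription factors that is held in the cytoplasm by inhibitor proteins of the IkappaB family. In the canonical arm, ligands such as tumour necrosis factor and interleukin 1 activate a kinase complex that phosphorylates the inhibitors, which are then degraded, and the freed dimers enter the nucleus. The genes of several inhibitors are themselves targets of NF-kappaB, so that new inhibitor protein ends the response. In the lung this pathway is known for the induction of chemokines, adhesion molecules and acute phase genes in epithelium, endothelium and leukocytes.

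Upstream sequences of a pair of genes are shown because the largest change among the 10 genes below is that of Nfkbia and the call in the deposited values concerns Nfkb2, and both genes are described in the literature as targets of NF-kappaB itself. The sequences are from RefSeq (GRCm38.p6) and hold the 250 bases before the transcription start, written in the direction of the gene, at chr12:55492648-55492897 (minus strand) for Nfkbia and chr19:46304487-46304736 (plus strand) for Nfkb2. Capitals mark matches to the kappaB consensus, a motif of 10 letters that was searched on both strands.
Nfkbia: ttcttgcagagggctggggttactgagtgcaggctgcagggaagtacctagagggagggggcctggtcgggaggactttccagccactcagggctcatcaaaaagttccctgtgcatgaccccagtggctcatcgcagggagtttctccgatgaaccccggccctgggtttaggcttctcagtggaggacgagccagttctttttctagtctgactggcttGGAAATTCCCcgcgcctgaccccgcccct
Nfkb2: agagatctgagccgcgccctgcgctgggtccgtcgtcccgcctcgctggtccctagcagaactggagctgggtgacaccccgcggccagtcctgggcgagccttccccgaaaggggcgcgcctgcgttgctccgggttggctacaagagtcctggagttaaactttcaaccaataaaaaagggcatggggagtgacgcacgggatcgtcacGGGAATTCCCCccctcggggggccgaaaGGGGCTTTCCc
The Nfkbia match lay 29 to 20 bases before the start and reads GGGAATTTCC on the strand opposite to the one printed. The Nfkb2 window held matches 39 to 29 bases before the start, which overlap one another, and another 11 to 2 bases before it. RefSeq windows were found for 7 of the 10 genes, and the consensus was in a window of 4 of them, Nfkbia, Nfkb2, Rel and Nfkbie. Nfkb2 and Ikbkg have several windows each. Of the 12 windows of the 7 genes, 6 held it, against 3.90% of all 32851 windows of the same length. Windows of the same gene are not independent, and a share by gene was not computed. Rel held GGGAAATCCC 92 to 83 bases before its start, and Nfkbie held GGGGGATTCC 106 to 97 bases before its start. The windows of Rela, Nfkbib and Ikbkg held no match, which says only that these letters are not in those windows.

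The deposited values are read here as FPKM, that is, read numbers divided by gene length and by the total of the library, so levels of different genes can be compared. In all 3 groups Nfkbia, the inhibitor IkappaB alpha, had the highest level of the 10 genes and Rela the next. Nfkbia averaged 71.9 ± 31.8 FPKM in OVA_Rg3 lungs, 120.2 ± 59.5 FPKM in OVA lungs and 119.5 ± 19.2 FPKM in control lungs (SD, n = 5 each). Rela, the main transactivating subunit, averaged 18.0 ± 9.62 FPKM in OVA_Rg3, 15.2 ± 4.61 FPKM in OVA and 21.6 ± 2.96 FPKM in control (SD, n = 5 each). Nfkbia lay above Rela in all 5 libraries of each group, and Rela above Nfkb2 in 4 of 5 OVA_Rg3, 5 of 5 OVA and 5 of 5 control libraries. Nfkb2 and Nfkbib followed, and their order was not separated by the libraries, since Nfkb2 was above Nfkbib in 4 of 5 OVA_Rg3, 3 of 5 OVA and 2 of 5 control libraries. Nfkb1, Nfkbie and Relb had group means between 2.74 and 5.45 FPKM. Ikbkb, Ikbkg and Rel were lowest, with group means between 0.972 and 2.27 FPKM, and no neighbouring pair among these kept its order in all 5 libraries of a group.

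Facts of the libraries touch all of these values. Transcripts encoded by the mitochondrial genome took 56.4% ± 10.3 of the summed values in OVA_Rg3, 65.0% ± 15.9 in OVA and 24.6% ± 3.95 in control lungs (SD, n = 5 each). The median log2 change of all 12137 genes tested was -0.73 for OVA against control, 0.32 for OVA_Rg3 against OVA and -0.43 for OVA_Rg3 against control. After median-ratio scaling, which divides each library by the median ratio of its genes to their geometric means, these medians were -0.02, -0.02 and -0.06. Results are therefore given for the deposited values and for the scaled values, and the part of the mitochondrial share in them was not tested. OVA_Rg3 1 listed 3250 genes at 0, against 400 to 1317 in the other 14 libraries, so its values are coarse. The 6 liver markers summed to 1481 FPKM in OVA_Rg3 1, 190.2 FPKM in OVA 4 and 388 FPKM in control 2, against group medians of 14.7, 4.33 and 1.36 FPKM, and these 3 libraries also had the highest sums of skeletal muscle and adipose markers in their groups. Lung epithelial markers (7 of 7 in the table, none at 0) summed to between 12442 and 205887 FPKM in the 15 libraries, as the tissue label states. In OVA against control, 4 of these 7 were called lower in the deposited values and 2 after scaling (median log2 change -1.81 and -0.84). After scaling, 2 of the 7 had a positive change, and none was called higher. Of the 6 heart markers 4 were called lower in the deposited values and 2 after scaling. Over all genes, 51.2% were called lower in the deposited values and 8.43% after scaling. Markers of smooth muscle and fibroblasts (6 of 6 in the table, none at 0 in a whole group) summed after scaling to 83.3 to 153 in OVA_Rg3, 52.3 to 89.5 in OVA and 218 to 297 in control. Of these, 5 of 6 were called lower in OVA than in control in both the deposited and the scaled values, against 51.2% and 8.43% of all genes. The 6 endothelial markers summed after scaling to 119.7 to 361 in OVA_Rg3, 107 to 336 in OVA and 66.2 to 113 in control. The part of the markers in the results below was not tested. In whole lung, fewer cells of a type and less RNA per cell cannot be told apart.

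OVA lungs were set against control lungs to ask how the induction altered these genes. In the deposited values Nfkb2 was the only one of the 10 that passed the test, and it fell. Its change was close to the median of all genes. All 10 genes passed the filter on low values, and 1 of 10 was called lower and none higher, where 51.8% of all genes were called, 51.2% lower and 0.577% higher (limma, Benjamini-Hochberg adjusted p under 0.05). At an unadjusted p under 0.05 there were 2 of 10, Nfkb2 and Rel, against 60% of all genes. The median log2 change of the 10 genes was -0.42, against -0.73 for all genes, and 9 of the 10 lay above that median. After scaling, all 10 changes were positive, with a median of 0.37 against -0.02 for all genes. None of the 10 was then called by limma, where 14.8% of all genes were (6.34% higher and 8.43% lower), and 3 of the 10 had an unadjusted p under 0.05, where 29.1% of all genes did. With array weights, which give less weight to variable libraries, 6 of the 10 were called lower in the deposited values (Nfkb1, Nfkb2, Rela, Relb, Rel and Nfkbib), where 81.7% of all genes were, and 3 higher after scaling (Nfkbia, Nfkbie and Ikbkb), where 12.8% were. Without OVA_Rg3 1, OVA 4 and control 2, the calls were Rel and Nfkbib, both lower, in the deposited values (54.2% of genes lower) and Nfkbia and Ikbkb, both higher, after scaling (10.1% of genes higher).

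**Figure D1:**
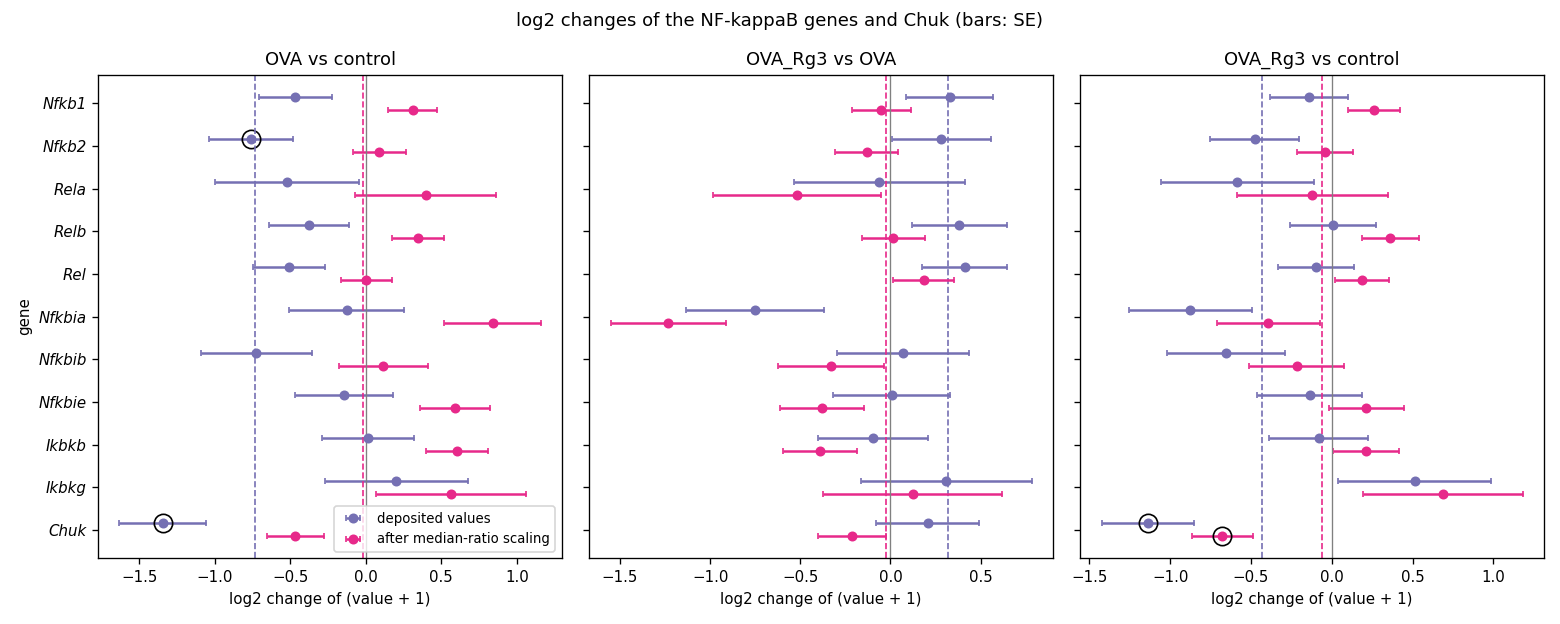
log2 change of (value + 1) with its SE (bars) for the 10 NF-kappaB genes and for Chuk, in deposited values (purple) and after median-ratio scaling (pink), for the 3 comparisons. Dashed lines give the median of all 12137 genes and circled points passed the adjusted p threshold of 0.05; most purple points for OVA against control lie right of the purple line at -0.73, and all pink points of the 10 genes there lie at or right of 0.

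Among the subunits, Nfkb2 encodes a precursor that is processed to the partner of Relb in the non-canonical arm and that can itself hold NF-kappaB in the cytoplasm (chromosome 19, 46304737 to 46312090, plus strand). Positions are those of the deposited table, which for 8 of the 10 genes, all but Nfkb2 and Nfkbie, were the same as in GENCODE M21 on GRCm38. Nfkb2 had 10.1, 8.61, 3.43, 5.48 and 4.20 FPKM in OVA 1 to 5 and 11.6, 10.6, 9.43, 9.33 and 13.2 FPKM in control 1 to 5. OVA 2 to 5 lay below every control, while OVA 1 lay within their range. Its log2 change was -0.76 (SE 0.28, limma adjusted p = 0.0307). The call was lost without control 1 (adjusted p = 0.0627), control 5 (0.0721), OVA 3 (0.0897), OVA 4 (0.0618) or OVA 5 (0.0803). After scaling Nfkb2 had 8.80, 8.38, 5.85, 9.62 and 8.04 in OVA and 7.63, 8.98, 6.47, 6.19 and 8.57 in control, a log2 change of 0.09 (SE 0.17, limma adjusted p = 0.785). Exons of Nfkb2 overlap those of Psd on the opposite strand over 299 bases, 6.52% of its exon length, and those of a long non-coding RNA over 531 bases, 11.6% of it. Whether the counting used strand is not given in the sources used here, so reads of these overlaps cannot be told apart.

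Rela (chromosome 19, 5637483 to 5648130, plus strand) had 20.1, 19.4, 9.75, 15 and 11.5 FPKM in OVA and 25.9, 18.8, 19.4, 20.5 and 23.2 FPKM in control, a log2 change of -0.52 (SE 0.47, limma adjusted p = 0.349). OVA 1 and OVA 2 lay within the control range and OVA 3 to 5 below it. After scaling Rela had 17.4, 18.9, 16.6, 26.3 and 22.0 in OVA against 17.0, 15.9, 13.3, 13.6 and 15.1 in control, and the groups overlapped only between OVA 3 and control 1. The log2 change after scaling was 0.40 (SE 0.47, limma adjusted p = 0.633). It was 0.43 with an adjusted p of 0.0483 when the scaling and the limma fit were repeated without OVA_Rg3 1, a library of neither group. Rela was listed at 1.71 FPKM in that library, which enters both the scaling and the shared estimate of the spread.

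Nfkb1, the precursor of the usual partner of Rela (chromosome 3, 135584655 to 135691547, minus strand), had 5.43, 5.25, 2.27, 3.13 and 2.74 FPKM in OVA and 4.41, 3.96, 6.61, 6.98 and 5.27 FPKM in control. OVA 3 to 5 lay below all controls, and OVA 1 and 2 lay within their range. The log2 change of Nfkb1 was -0.47 (SE 0.24, limma adjusted p = 0.109), and after scaling it was 0.31 (SE 0.16, adjusted p = 0.220). Without OVA 1 it was -0.59 in the deposited values and passed (limma adjusted p = 0.0417). Relb, the subunit of the non-canonical arm (chromosome 7, 19606217 to 19629438, minus strand), had 4.03, 3.49, 1.86, 1.86 and 2.47 FPKM in OVA and 4.75, 2.93, 4.11, 2.21 and 5.35 FPKM in control, and the groups overlapped. Its log2 change was -0.38 (SE 0.26, limma adjusted p = 0.231), and 0.35 after scaling (SE 0.17, adjusted p = 0.204). Rel, the subunit best known from lymphocytes (chromosome 11, 23736847 to 23770970, minus strand), had 2.08, 0.867, 0.683, 0.592 and 0.636 FPKM in OVA and 1.86, 0.923, 2.06, 1.71 and 2.23 FPKM in control. OVA 1 stood with the controls, while the other OVA libraries lay below all of them. Its log2 change was -0.51 (SE 0.24, limma adjusted p = 0.0776), and it passed without OVA 1 (-0.68, adjusted p = 0.0149) or control 2 (-0.63, adjusted p = 0.0342). After scaling the log2 change of Rel was 0.00 (SE 0.17, limma adjusted p = 0.994).

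Nfkbia is the inhibitor that is degraded and remade fastest in the canonical arm (chromosome 12, 55489410 to 55492647, minus strand). It had 175, 189.7, 107, 69.0 and 60.5 FPKM in OVA and 90.8, 111, 126, 129 and 140.5 FPKM in control. OVA 1 and 2 were above every control, OVA 4 and 5 below every control, and the log2 change was -0.12 (SE 0.38, limma adjusted p = 0.787). After scaling it had 152, 184, 183, 121 and 116 in OVA and 59.7, 93.9, 86.5, 85.8 and 91.5 in control. All 5 OVA libraries then lay above all 5 controls, where 7% of all genes did so. The log2 change was 0.84 (SE 0.32, limma unadjusted p = 0.0185, adjusted p = 0.0892) and did not pass the threshold. It passed without OVA_Rg3 1, at 0.87 with an adjusted p of 0.00316, in the scaled limma fit, and in a scaled fit of OVA and control alone, at 0.84 with an adjusted p of 0.0109.

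**Figure D2:**
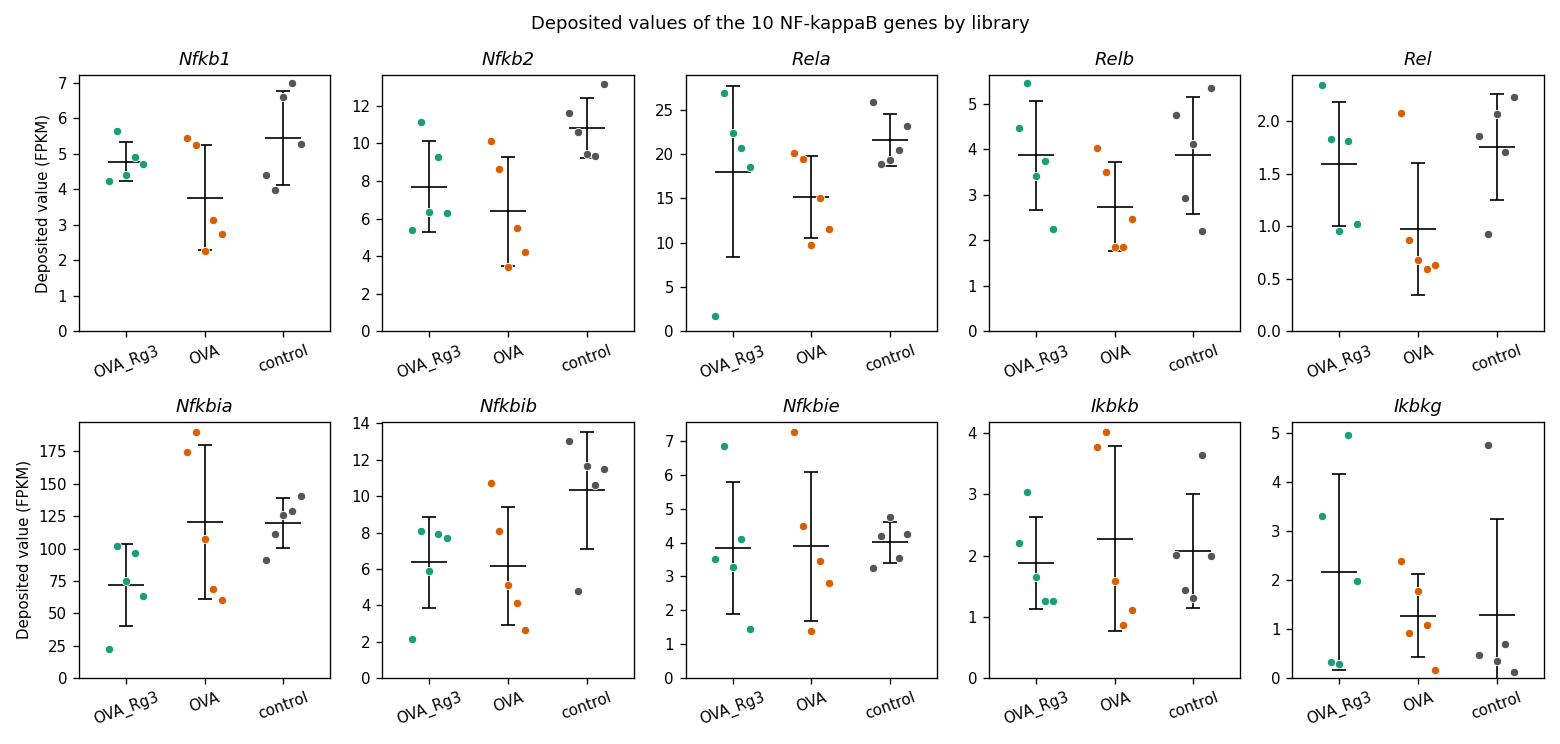
Deposited value (FPKM) of each of the 10 genes in each library, with OVA_Rg3, OVA and control from left to right; points are libraries in the order of their numbers, horizontal bars group means and whiskers 1 SD, cut at 0. No gene has groups that do not overlap, and within OVA the first 2 libraries stand above the other 3 for 9 of the 10 genes.

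The libraries of the OVA group did not vary independently from gene to gene. In the deposited values 9 of the 10 genes were higher in both OVA 1 and OVA 2 than in any of OVA 3 to 5, the exception being Ikbkg, and 69% of all genes tested showed the same order. The mitochondrial share was 46.2% and 49.9% in OVA 1 and 2 and 70.5%, 79.8% and 78.6% in OVA 3 to 5. After scaling it held for 1 of the 10 genes, Ikbkb, and for 18.4% of all genes.

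The other inhibitors had lower levels than Nfkbia. Nfkbie, the inhibitor IkappaB epsilon (chromosome 17, 45555716 to 45563169, plus strand), had 7.27, 4.49, 1.39, 3.47 and 2.82 FPKM in OVA and 3.25, 4.18, 4.77, 3.54 and 4.27 FPKM in control, a log2 change of -0.14 (SE 0.33, limma adjusted p = 0.713). The OVA libraries lay on both sides of the controls. After scaling it had 6.31, 4.36, 2.36, 6.08 and 5.39 in OVA and 2.14, 3.54, 3.27, 2.35 and 2.78 in control, so that every OVA library but OVA 3 was above the controls. The log2 change was 0.59 (SE 0.23, limma adjusted p = 0.0992), and 0.79 without OVA 3, where it passed (adjusted p = 0.0208). Nfkbib, the inhibitor IkappaB beta (chromosome 7, 28758251 to 28767512, minus strand), had 10.7, 8.10, 5.12, 4.14 and 2.62 FPKM in OVA and 13.02, 4.80, 11.7, 10.6 and 11.5 FPKM in control. Control 2 stood with the lower OVA libraries and OVA 1 with the other controls. The log2 change of Nfkbib was -0.72 (SE 0.37, limma adjusted p = 0.101), and 0.11 after scaling (SE 0.29, adjusted p = 0.846). In the deposited values it passed without control 2 (-0.95, limma adjusted p = 0.0358) or OVA 1 (-0.93, limma adjusted p = 0.0358). Exons of Nfkbib overlap Ccer2 over 314 bases and Sirt2 over 42 bases on the opposite strand, 14.5% and 1.94% of its exon length, so reads of these overlaps cannot be told apart either.

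Of the kinase genes, Ikbkb encodes the catalytic subunit that acts on the inhibitors in the canonical arm (chromosome 8, 22659212 to 22706589, minus strand). It had 3.78, 4.02, 1.58, 0.869 and 1.11 FPKM in OVA and 2.00, 1.43, 1.30, 3.63 and 1.99 FPKM in control, a log2 change of 0.01 (SE 0.30, limma adjusted p = 0.973). OVA 1 and 2 lay above all controls, OVA 4 and 5 below them and OVA 3 within their range. After scaling it had 3.28, 3.91, 2.69, 1.53 and 2.13 in OVA against 1.32, 1.21, 0.891, 2.41 and 1.30 in control, and control 4 was the only control within the OVA range. The log2 change was 0.60 (SE 0.21, limma adjusted p = 0.0609), and it passed after quantile normalization of the deposited values (0.70, adjusted p = 0.0345) or without control 4 (adjusted p = 0.0391), OVA 4 (0.0335) or OVA_Rg3 1 (0.0352) in the scaled fit. Ikbkg encodes the regulatory subunit that links the kinases to upstream ubiquitin chains (chromosome X, 74393290 to 74453854, plus strand). It had 2.39, 0.925, 1.79, 1.09 and 0.172 FPKM in OVA and 0.467, 4.77, 0.353, 0.699 and 0.134 FPKM in control, and its log2 change was 0.20 (SE 0.47, limma adjusted p = 0.722), and 0.56 after scaling (SE 0.50, adjusted p = 0.505). Control 2 lay above all OVA libraries and the other controls among or below them. Exons of Ikbkg overlap those of G6pdx on the opposite strand over 418 bases, 5.15% of its exon length.

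Chuk, which encodes the other catalytic subunit of the kinase complex, is not among the 10 genes and was named with the adaptors and kinases of the pathway. It had 11.8, 11.7, 7.53, 5.05 and 3.24 FPKM in OVA and 19.5, 18.3, 20.9, 20.9 and 19.0 FPKM in control. All OVA libraries lay below all controls, where 32.1% of all genes did so, and it fell by 1.35 on the log2 scale (SE 0.29, limma adjusted p = 0.00174). After scaling its values were 10.2, 11.4, 12.8, 8.86 and 6.203 in OVA and 12.8, 15.5, 14.3, 13.8 and 12.4 in control, with a log2 change of -0.47 (SE 0.19, limma adjusted p = 0.109). The ratio of Chuk to Ikbkb within a library does not depend on the scaling. It was 3.12, 2.92, 4.77, 5.81 and 2.91 in OVA and 9.71, 12.8, 16.1, 5.74 and 9.54 in control. The groups overlapped in OVA 4 and control 4, and the difference of the mean log2 ratios was -1.44 (exact permutation test, two-sided, unadjusted p = 0.0159, ratio chosen after the values were seen).

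**Figure D3:**
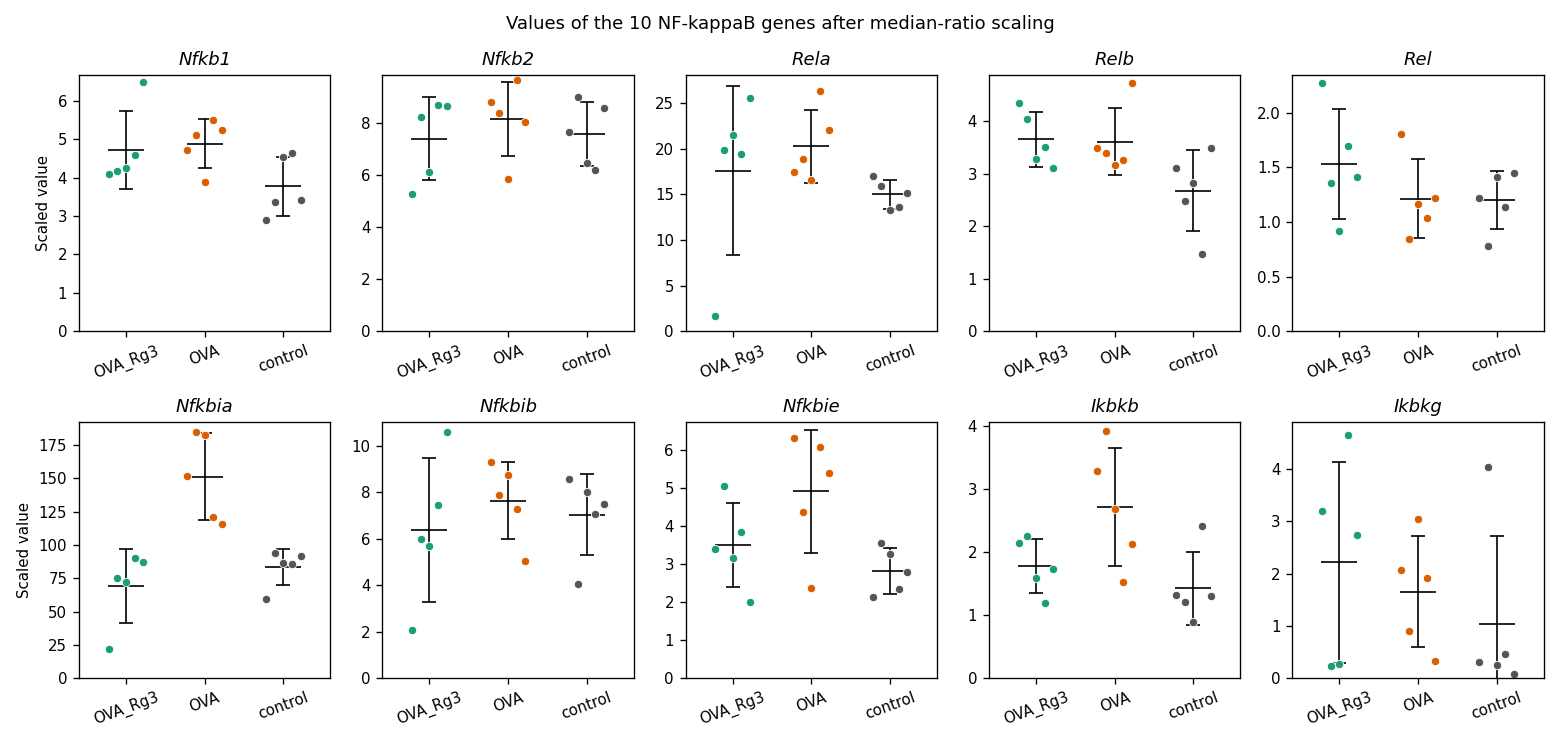
Value after median-ratio scaling of each of the 10 genes in each library, with OVA_Rg3, OVA and control from left to right; points are libraries in the order of their numbers, horizontal bars group means and whiskers 1 SD, cut at 0. Nfkbia lies at 116 or above in all OVA libraries and at 93.9 or below in the other 10.

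The comparison of OVA_Rg3 with OVA asks whether the saponin changed these genes in the allergic lung. None of the 10 genes was called, and neither was any of the 12137 genes tested, a background of 0% (limma). None of the 10 had an unadjusted p under 0.05 in the deposited values, where 14.5% of all genes did, and 1 of 10 had after scaling, where 8.73% did. That gene was Nfkbia. The median log2 change of the 10 was 0.18 in the deposited values, against 0.32 for all genes, and -0.23 after scaling, against -0.02. With array weights Nfkb1 (0.50) and Rela (0.67) were called higher in the deposited values, where 57.2% of all genes were.

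Nfkbia had 22.4, 102, 75.3, 96.6 and 63.4 FPKM in OVA_Rg3 and 175, 189.7, 107, 69.0 and 60.5 FPKM in OVA. OVA 1 to 3 lay above all OVA_Rg3 libraries, while OVA 4 and 5 lay within their range, and the log2 change was -0.75 (SE 0.38, limma adjusted p = 0.358). After scaling it had 21.8, 75.4, 72.5, 90.6 and 87.3 in OVA_Rg3 and 152, 184, 183, 121 and 116 in OVA. All OVA_Rg3 libraries lay below all OVA libraries, where 0.923% of all genes did so, and the OVA_Rg3 values other than 21.8 in OVA_Rg3 1 lay within the control range of 59.7 to 93.9. The log2 change was -1.23 (SE 0.32, limma unadjusted p = 0.00144, adjusted p = 0.297) and failed the correction over all genes. That change includes OVA_Rg3 1, where the Nfkbia value was estimated at about 16 reads for its exon length. Scaled and fitted again without that library, Nfkbia changed by 0.87 in OVA and by 0.0051 in OVA_Rg3, each against control.

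The ratio of 2 genes of 1 library is the same before and after scaling, and 5 ratios were tested in 3 comparisons. Nfkbia to Nfkbib, the inhibitor that is remade fast against the one that is not, was 10.5, 12.6, 12.8, 12.2 and 8.22 in OVA_Rg3 and 16.3, 23.4, 20.9, 16.6 and 23.1 in OVA. All 5 OVA_Rg3 ratios lay below all 5 OVA ratios. The 10.5 of OVA_Rg3 1, the shallowest library, rests on an Nfkbib value estimated at about 2 reads for its exon length. That ratio is therefore coarse, and the p-value given next includes it. The difference of mean log2 ratios was -0.84 (exact permutation test, two-sided, p = 0.00794, the smallest that 5 against 5 can give, adjusted p = 0.119 over 15 tests). With 15 tests, no single ratio could have passed after adjustment in groups of this size. In control the ratio was 6.97, 23.1, 10.8, 12.2 and 12.2, with control 2 among the OVA values. Control 2 was the shallowest control, and its Nfkbib value was estimated at about 18 reads. OVA against control differed by 0.71 (exact permutation p = 0.0556, adjusted p = 0.417), and OVA_Rg3 against control by -0.12 (exact permutation p = 0.746, adjusted p = 0.861). The comparisons of OVA share the same 5 OVA libraries.

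**Figure D4:**
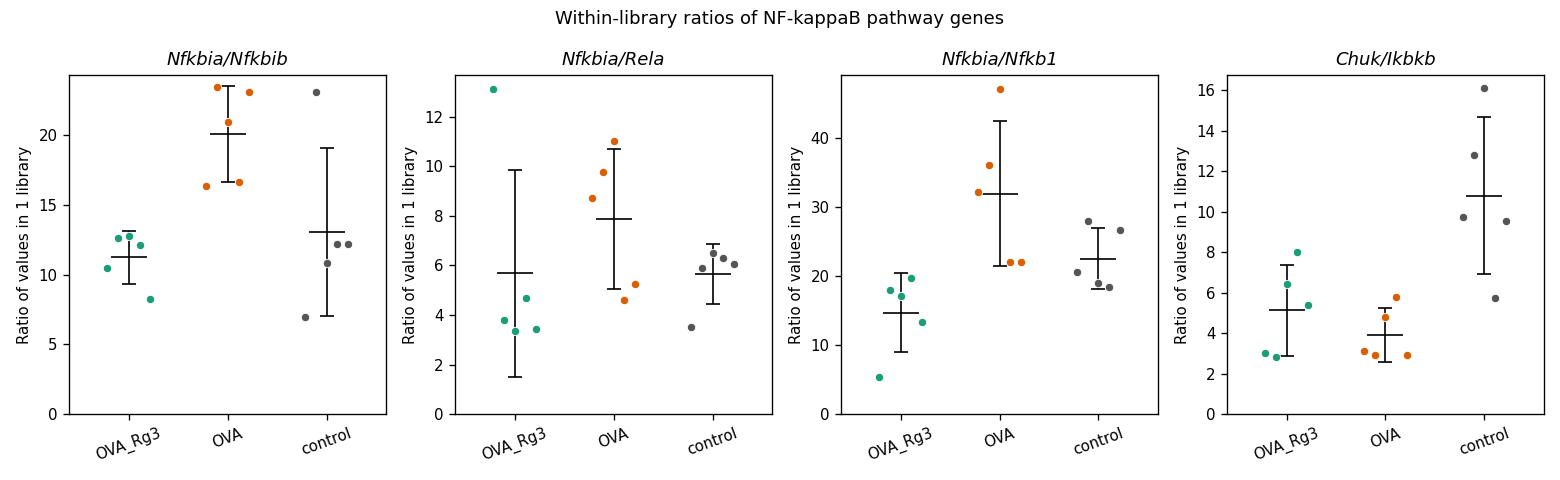
Ratio of the values of 2 genes within a library, by group, with OVA_Rg3, OVA and control from left to right; points are libraries in the order of their numbers, horizontal bars means and whiskers 1 SD. Nfkbia/Nfkbib lies between 8.22 and 12.8 in OVA_Rg3 and between 16.3 and 23.4 in OVA; Nfkbia/Nfkb1 and Chuk/Ikbkb were chosen after the values were seen.

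The other 4 ratios overlapped between the groups in every comparison. Nfkbia to Rela was 3.36 to 4.68 in OVA_Rg3 2 to 5 and 13.1 in OVA_Rg3 1, against 4.60 to 10.99 in OVA (difference -0.62, exact permutation p = 0.183, adjusted p = 0.456). The Rela value of OVA_Rg3 1 was estimated at about 2 reads for its exon length. Ratios to Rela in that library are therefore coarse, and the difference and p-value just given include it. Nfkb1 to Rela ran between 0.197 and 0.254 in OVA_Rg3 2 to 5 and was 2.46 in OVA_Rg3 1, against 0.208 to 0.270 in OVA and 0.170 to 0.341 in control, so the balance of these partners at the RNA level overlapped between groups outside that library. Nfkb2 to Relb was 1.21 to 2.78 in OVA_Rg3 and 2.29 to 4.22 in control (difference -0.55, exact permutation p = 0.103, adjusted p = 0.456). Ikbkb to Ikbkg ranged from 0.255 to 14.8 over the 15 libraries and overlapped in every comparison. Nfkbia to Nfkb1, added after the values were seen, was 5.32 to 19.7 in OVA_Rg3 and 22.1 to 47.1 in OVA (difference -1.19, exact permutation p = 0.00794, unadjusted), with no overlap. The 5.32 was that of OVA_Rg3 1, estimated at about 16 Nfkbia and 22 Nfkb1 reads, and OVA_Rg3 2 to 5 ran from 13.4 to 19.7. The difference includes this coarse value. Nfkbia to Nfkb1 was among 3 ratios added in this way, each in 3 comparisons. Nfkbia to Nfkb1 in OVA against control gave p = 0.111 and in OVA_Rg3 against control p = 0.0317, Chuk to Ikbkb in OVA_Rg3 against OVA gave p = 0.357, and Ikbkb to Rela gave p = 0.278, 0.968 and 0.714 for OVA and control, OVA_Rg3 and OVA, and OVA_Rg3 and control (exact permutation, unadjusted).

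The remaining genes differed less between OVA_Rg3 and OVA. Rela had 1.71, 26.8, 22.4, 20.7 and 18.5 FPKM in OVA_Rg3, with a log2 change of -0.06 against OVA (SE 0.47, limma adjusted p = 0.953), and OVA_Rg3 1 was far below every other library. Without it the log2 change of Rela was 0.55, and the gene was not called. Ikbkb had 2.21, 3.04, 1.66, 1.26 and 1.26 FPKM in OVA_Rg3, with a log2 change of -0.09 (SE 0.30, limma adjusted p = 0.882) and of -0.39 after scaling (SE 0.21, adjusted p = 0.619). Nfkbie had 3.51, 6.84, 3.29, 4.10 and 1.45 FPKM in OVA_Rg3, with log2 changes of 0.01 and, after scaling, -0.38 (SE 0.33 and 0.23, limma adjusted p = 0.994 and 0.675). Values of both genes overlapped those of OVA. Nfkb2 had 5.41, 11.1, 6.35, 9.25 and 6.28 FPKM in OVA_Rg3, and its log2 change was 0.28 (SE 0.28, limma adjusted p = 0.588), and -0.13 after scaling (SE 0.17, adjusted p = 0.841). Rel had 2.34, 1.83, 0.951, 1.81 and 1.02 FPKM in OVA_Rg3 and showed a log2 change of 0.41 (SE 0.24, limma adjusted p = 0.394), all OVA_Rg3 libraries lying above OVA 2 to 5. Nfkb1 had 4.22 to 5.65, Relb 2.26 to 5.45, Nfkbib 2.14 to 8.09 and Ikbkg 0.289 to 4.95 FPKM in OVA_Rg3, with log2 changes of 0.33, 0.38, 0.07 and 0.31 against OVA and, after scaling, of -0.05, 0.02, -0.33 and 0.12, none called.

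For OVA_Rg3 against control, none of the 10 genes was called in either scale, where 16.6% of all genes were called in the deposited values and 7.78% after scaling (limma). Of the 10, 1 had an unadjusted p under 0.05 in the deposited values and none after scaling, where 35.2% and 24.5% of all genes did. The median log2 change of the 10 was -0.14, against -0.43 for all genes, and 0.20 after scaling, against -0.06. Nfkbia had the most negative change in the deposited values, -0.88 (SE 0.38, limma adjusted p = 0.114), with OVA_Rg3 1, 3 and 5 below the lowest control at 90.8 FPKM. After scaling it was -0.39 (SE 0.32, limma adjusted p = 0.482), and 0.0051 without OVA_Rg3 1. With array weights 4 of the 10 were called lower in the deposited values (Nfkb2, Rel, Nfkbia and Nfkbib), where 56.9% of all genes were. Rela was called after scaling without OVA_Rg3 1, at 0.52 (limma adjusted p = 0.0486) against -0.12 with it. Chuk had 6.62, 8.50, 10.7, 10.1 and 6.79 FPKM in OVA_Rg3, all below the controls, where 18.5% of all genes did so. Its log2 change was -1.14 (SE 0.29, limma adjusted p = 0.0127), and it stayed past the threshold after scaling, at -0.68 (SE 0.19, adjusted p = 0.0403), a call kept in 6 of the 15 fits that left out 1 library. The ratio of Chuk to Ikbkb was 3.00, 2.80, 6.45, 7.99 and 5.39 in OVA_Rg3 and differed from control by -1.11 (exact permutation test, two-sided, unadjusted p = 0.0238, chosen after the values were seen).

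The genes around the 10 were followed by lists of their roles. Of the ligands, 5 of 10 passed the filter on low values, and in OVA against control 1 fell and none rose in the deposited values (Tnfsf13b, the survival factor BAFF, at -0.79, limma adjusted p = 0.0127), while 2 rose and none fell after scaling. Over all genes, 51.2% fell and 0.577% rose in the deposited values, and 6.34% rose after scaling. Il33, the alarmin of epithelium and stroma, rose after scaling by 1.44 on the log2 scale (SE 0.29, limma adjusted p = 0.00504), and its mean was 17.6 ± 5.24 in OVA, against 6.29 ± 3.30 in control (SD, n = 5 each). Il1a, the alpha form of interleukin 1, rose by 1.15 (SE 0.26, limma adjusted p = 0.00938), with 4.28 ± 1.44 in OVA and 1.41 ± 0.870 in control. Neither was called in the deposited values, where Il33 had a log2 change of 0.57 and Il1a of 0.51. In OVA_Rg3 against control, Il1a rose after scaling by 0.89 (limma adjusted p = 0.0467), and Il33 had 0.92 (adjusted p = 0.0596). The Il1a call was kept in 5 of the 15 fits that left out 1 library, and it was lost with only these groups in the fit (adjusted p = 0.0596) and without OVA_Rg3 1, OVA 4 and control 2 (0.0534).

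Of 12 receptor genes tested, 6 fell and none rose in OVA against control in the deposited values, and after scaling 2 fell and 1 rose, where 51.2% of all genes fell in the deposited values and 8.43% fell and 6.34% rose after scaling. Il1r1, the signalling receptor of interleukin 1, fell by 1.49 and, after scaling, by 0.77 on the log2 scale (limma adjusted p = 0.00248 and 0.0195). Il1rap, its accessory chain, fell by 1.02 and, after scaling, by 0.65 (limma adjusted p = 0.000289 and 0.00399). It fell likewise in OVA_Rg3 against control, by 0.78 and, after scaling, by 0.51 (limma adjusted p = 0.00563 and 0.0249). Tnfrsf13c, the B cell receptor for BAFF, rose after scaling by 1.52 (SE 0.44, limma adjusted p = 0.0306), at 5.48 ± 3.06 in OVA, against 1.26 ± 1.24 in control (SD, n = 5 each). The 6 B cell markers, none of them at 0 in a group, moved with it, with sums after scaling of 8.26 to 39.3 in OVA_Rg3, 19.5 to 46.8 in OVA and 4.00 to 19.2 in control. After scaling 2 of these 6 markers were called higher in OVA than in control, where 6.34% of all genes were, and none was called in the deposited values. Their part in the result was not tested.

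Of 28 adaptors and upstream kinases tested, 12 fell and none rose in the deposited values, and 1 rose and none fell after scaling, which is below the background shares given above. That gene was Irak4, a kinase of the interleukin 1 and Toll-like receptors, at 0.53 after scaling and -0.08 in the deposited values (limma adjusted p = 0.0498 and 0.795). Of 12 ubiquitin regulators, 3 fell in the deposited values (Fbxw11, Itch and Rnf31, ubiquitin ligase genes, at -0.88, -0.85 and -0.77) and 2 rose after scaling, against 51.2% and 6.34% of all genes. Tnip1, a partner of the deubiquitinase A20, was at 0.60 after scaling and -0.18 in the deposited values (limma adjusted p = 0.0410 and 0.594). Tax1bp1, an adaptor of the same enzyme, was at 0.58 after scaling and -0.35 in the deposited values (limma adjusted p = 0.0499 and 0.241). Of 10 atypical inhibitors and nuclear cofactors, 5 fell in the deposited values, among them Nkrf, Bcl3, Ep300 and Nfkbiz, against 51.2% of all genes, and none was called after scaling by limma, where 3 had an unadjusted p under 0.05, against 29.1% of all genes. Nfkbiz, an inducible nuclear cofactor, had the largest of these changes, -1.30 (limma adjusted p = 0.00447), and -0.56 after scaling (adjusted p = 0.107).

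**Figure D5:**
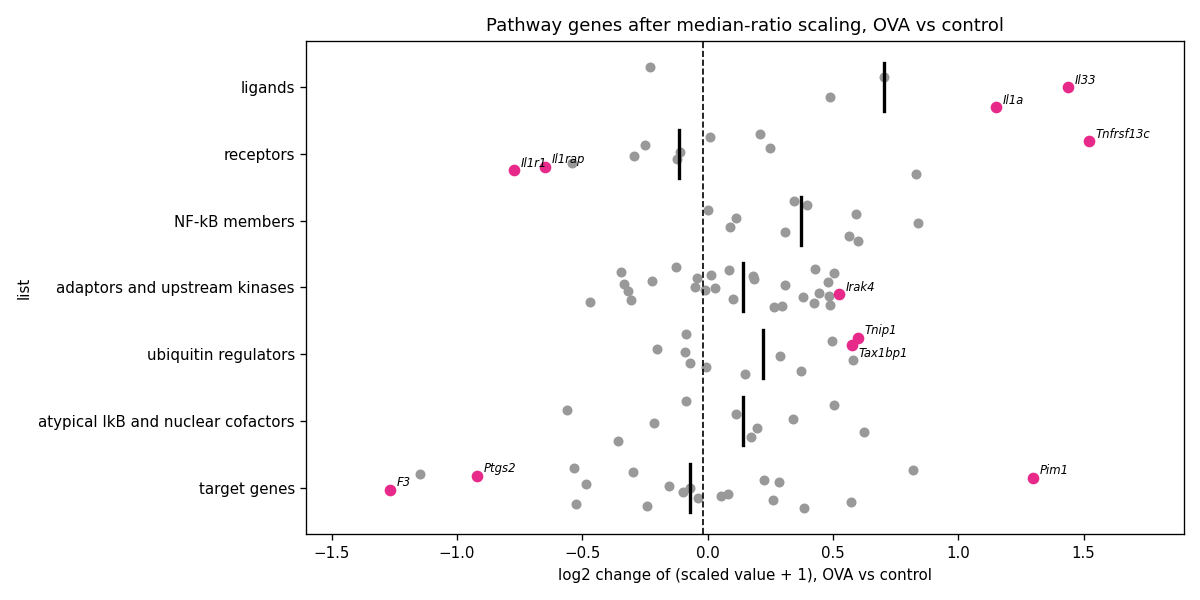
log2 change of (scaled value + 1) for OVA against control, 1 point per gene, for the 10 NF-kappaB genes and the lists of pathway genes; pink points with names passed the adjusted p threshold of 0.05, black bars are list medians and the dashed line is the median of all genes, at -0.02. The 10 genes all lie at or right of 0 and none is pink.

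Of 21 known targets tested, 7 fell and none rose in the deposited values, and after scaling 1 rose and 2 fell, against 51.2% lower in the deposited values and 6.34% higher and 8.43% lower after scaling over all genes. Pim1, a survival kinase, rose after scaling by 1.30 (SE 0.24, limma adjusted p = 0.00385), at 18.6 ± 5.87 in OVA, against 6.91 ± 2.17 in control (SD, n = 5 each). F3, tissue factor, fell by 1.27 (limma adjusted p = 0.00759) and Ptgs2, the inducible cyclooxygenase, by 0.92 (adjusted p = 0.0418). The median of the targets after scaling was -0.07, against -0.02 for all genes. In OVA_Rg3 against control 4 targets fell in the deposited values (Ccl20, Saa3, F3 and Sod2) and 3 after scaling, and none rose. After scaling Ccl20, a chemokine, fell by 2.04, Saa3, an acute phase gene, by 1.63 and F3 by 1.06 (limma adjusted p = 0.0352, 0.0419 and 0.0311). Over all genes, 16.6% were called in the deposited values and 7.78% after scaling, both shares counting either direction. The scaled calls were kept in 7 (Ccl20), 6 (Saa3) and 9 (F3) of the 15 fits that left out 1 library. No gene of any list was called in OVA_Rg3 against OVA by limma in either scale. Of the 11 pathway genes called after scaling in OVA against control, Il33, Il1a, Pim1 and F3 stayed past the threshold in all 15 fits that left out 1 library, and Il1rap in the 10 such fits that tested it, while the others were lost in at least 3 of 15.

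Genes with patterns like those of the 10 were found by the root mean square difference of centred log2 values after scaling over all 15 libraries. Among the genes most like Nfkbia were Nipbl (0.27) and Sarnp (0.30), against a root mean square of 0.70 for Nfkbia itself. For Relb they were Iws1 (0.15), Tnip1 (0.16) and Itgb1bp1 (0.18), against 0.27 for Relb. For Rela they were Wtip (0.21), Zfand2a (0.22) and Commd9 (0.22), against 0.76, with OVA_Rg3 1 far below the other libraries. All genes of a library share its depth and scaling, which enter all such comparisons, and no test was made of them.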

How the data were processed

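Values were analysed from the gene table as deposited. Its header names no unit. The values are taken to be FPKM as made by the authors, an inference from the values, and TPM over a larger set of genes cannot be told apart from it. Per the submitters' processing notes, Trimmomatic and featureCounts were used with the builds GRCm39 and mm39, yet 13545 of 14766 deposited gene positions were those of GENCODE M21 on GRCm38, 8 of the 10 genes among them. Libraries were made from oligo(dT)-enriched RNA with the TruSeq RNA kit in batch 1, per the labels' protocols. Read numbers were not recovered. Low values of single-transcript genes, read as multiples of 1 read, gave depths spanning a 41.7-fold range, lowest in OVA_Rg3 1.

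log2(value + 1) was fitted with limma 3.58.1 (trend, robust) in R 4.3.3, 1 mean per group over 15 libraries, for the 12137 genes that reached 1 FPKM in 5 or more libraries. p-values were adjusted over all of them by Benjamini-Hochberg, and a call is an adjusted p under 0.05. log2 changes on this scale understate those of low genes. The fit was checked on simulated data with independent noise for each gene and no shift shared by whole libraries. That check therefore cannot speak for calls under the shifts of whole libraries described above. Ratios were compared by exact permutation with Python 3.11.15, numpy 2.4.6 and pandas 2.3.3, and figures drawn with matplotlib 3.10.9. Deviations of same-numbered libraries had correlations between -0.38 and 0.32, which were not set against those of differently numbered libraries. The numbers were not taken as pairs.

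The 10 genes and all lists were chosen with earlier results of these data known. Named genes were the 10, and from each pathway list up to 4 genes of smallest p per comparison and any gene called after scaling, of which those called and a few others are printed. Alternatives were median-ratio scaling, quantile normalization, filters, array weights, the groups in the fit, a replicate block, a pseudocount of 0.1, and libraries left out.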

Additional observations from a re-analysis of the deposited data

Results flagged for a closer look

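Values of the 10 genes and Chuk were screened for a library far from the other 4 of its group by Dixon's criterion at the 95% level, in 33 groups of 5 libraries. There were 2 such values, and chance gives about 5% of groups. Rel was 2.08 FPKM in OVA 1, the highest of its group, against 0.592 to 0.867 in the other OVA libraries. Ikbkg was 4.77 FPKM in control 2, the highest of its group, against 0.134 to 0.699 in the other control libraries. No value of OVA_Rg3 1 passed this criterion, though Rela was 1.71 FPKM there.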

How the results depend on the processing

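Of the 10 genes, the number called in OVA against control was 1 in the deposited values, and it was 6 with array weights, 2 without OVA_Rg3 1, OVA 4 and control 2, 0 after median-ratio scaling, and 0 to 4 with each library left out. After scaling it was 0, and 1 with only the compared groups in the fit, 3 with array weights (both fits chosen after seeing the data), 2 without the 3 libraries and 0 to 3 with each library left out. In OVA_Rg3 against OVA it was 0, and 2 with array weights. In OVA_Rg3 against control it was 0, and 4 with array weights. In that comparison after scaling it was 0, and 1 without the 3 libraries and 0 to 1 with each library left out. No share of all genes is given for the fits with 1 library left out, the compared groups alone or a replicate block. The same holds for scaled OVA_Rg3 against control without the 3 libraries. The counts of these fits are therefore not set against a background here, and nothing is concluded from them. The replicate numbers were not shown to pair the samples, with correlations of same-numbered deviations between -0.38 and 0.32; with a replicate block the deposited calls in OVA against control stayed at 1 (Nfkb2), and the other comparisons had 0. A count test was not run because the file holds no counts. Below are log2 changes, or differences of log2 ratios, that took the opposite sign; the cause was not tested. After median-ratio scaling, opposite in sign were Nfkb1 0.31, Nfkb2 0.090, Rela 0.40, Relb 0.35, Rel 0.0035, Nfkbia 0.84, Nfkbib 0.11, Nfkbie 0.59, Irak4 0.53, Tax1bp1 0.58, Tnip1 0.60 in OVA against control, and Nfkb1 -0.050, Nfkb2 -0.13, Nfkbib -0.33, Nfkbie -0.38, Chuk -0.21 in OVA_Rg3 against OVA, and Nfkb1 0.26, Rel 0.19, Nfkbie 0.21, Ikbkb 0.21 in OVA_Rg3 against control. After quantile normalization, opposite in sign were Nfkb1 0.38, Nfkb2 0.10, Rela 0.33, Relb 0.42, Rel 0.095, Nfkbia 0.58, Nfkbib 0.13, Nfkbie 0.67, Irak4 0.62, Tax1bp1 0.48, Tnip1 0.65 in OVA against control, and Nfkb1 -0.088, Nfkb2 -0.15, Relb -0.0062, Nfkbib -0.35, Nfkbie -0.40, Chuk -0.20 in OVA_Rg3 against OVA, and Nfkb1 0.29, Rel 0.24, Nfkbie 0.26, Ikbkb 0.27 in OVA_Rg3 against control. With array weights, opposite in sign were Ikbkb -0.43 in OVA against control, and Rela 0.67, Ikbkb 0.20, Ikbkg -0.067 in OVA_Rg3 against OVA, and Relb -0.11 in OVA_Rg3 against control. With array weights after scaling, opposite in sign were Rel -0.074 in OVA against control, and Rela 0.040, Relb -0.023, Ikbkg -0.28 in OVA_Rg3 against OVA, and Nfkb2 0.00063, Rela 0.42, Rel -0.037 in OVA_Rg3 against control. With a pseudocount of 0.1, opposite in sign were Ikbkb -0.033 in OVA against control. With a pseudocount of 0.1 after scaling, opposite in sign were Ikbkg -0.011 in OVA_Rg3 against OVA. Without control 2, OVA 4 and OVA_Rg3 1, opposite in sign were Nfkbia 0.013 in OVA against control, and Rela 0.56 in OVA_Rg3 against OVA, and the ratios Nfkb1 to Rela -0.17, Nfkb2 to Relb 0.11 in OVA_Rg3 against OVA, and Relb -0.11 in OVA_Rg3 against control, and the ratios Nfkb1 to Rela -0.21, Nfkbia to Nfkbib 0.13 in OVA_Rg3 against control. Without these 3 libraries after scaling, opposite in sign were Rel -0.030, Nfkbib -0.010 in OVA against control, and Nfkb1 0.026, Nfkb2 0.028, Rela 0.19, Relb -0.060 in OVA_Rg3 against OVA, and Nfkb2 0.14, Rela 0.54, Nfkbia 0.051 in OVA_Rg3 against control. With ratios of (value + 1), opposite in sign were the ratio Nfkb1 to Rela 0.056 in OVA against control. With each library left out in turn, changes that took the opposite sign in at least 1 fit ranged as follows. In OVA against control Nfkbia -0.33 to 0.082, Nfkbie -0.36 to 0.085, Ikbkb -0.17 to 0.18, Irak4 -0.27 to 0.064, Nfkb1 to Rela -0.17 to 0.082. In OVA_Rg3 against OVA Rela -0.29 to 0.55, Nfkbib -0.15 to 0.35, Nfkbie -0.22 to 0.23, Ikbkb -0.27 to 0.091, Chuk -0.028 to 0.37, Nfkb1 to Rela -0.12 to 0.79, Nfkb2 to Relb -0.29 to 0.0082, Ikbkb to Ikbkg -1.17 to 0.14. In OVA_Rg3 against control Rela -0.81 to 0.031, Relb -0.13 to 0.14, Nfkbie -0.34 to 0.084, Ikbkb -0.21 to 0.079, Nfkb1 to Rela -0.15 to 0.76, Nfkbia to Nfkbib -0.32 to 0.11. After scaling, in OVA against control Rel -0.083 to 0.068, Nfkbib -0.046 to 0.24. After scaling, in OVA_Rg3 against OVA Rela -0.73 to 0.094, Relb -0.038 to 0.096, Ikbkg -0.14 to 0.40. After scaling, in OVA_Rg3 against control Nfkb2 -0.10 to 0.084, Rela -0.34 to 0.52, Nfkbia -0.53 to 0.0051, Nfkbib -0.41 to 0.094. Within the scaled ranges, Rel in OVA against control was -0.072 without control 2 and -0.0053 without control 4. In OVA_Rg3 against OVA, Relb was -0.019 without OVA 3, -0.0091 without OVA 4 and -0.014 without OVA_Rg3 2, and Ikbkg was -0.040 without OVA_Rg3 1. In OVA_Rg3 against control, Nfkb2 was 0.011 without control 2, 0.0019 without control 5 and 0.0087 without OVA_Rg3 3. Read numbers were not recovered, so no counting interval is given, and in OVA_Rg3 1, the shallowest library, the values of Nfkbib, Rela and Nfkbie come to the fewest reads for their exon length among the 10 genes.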
